A study of Rattus norvegicus with 54 samples.

Results

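The right and left gubernaculum of the same fetus were compared at gestational day (GD) 20 in male rats of 2 strains, LE/orl and LE/wt. The pairs were 12 of the 54 arrays of the series: 3 LE/orl fetuses (A, B and C) and 3 LE/wt fetuses (A, B and C), each with 1 array of the right and 1 array of the left organ. They were chosen by label, right and left being paired by fetus letter within a strain. The left array of fetus D in each strain has no right partner and entered no paired test. LE/orl is the series' strain with inherited cryptorchidism, in which testes fail to descend, and LE/wt is its wildtype strain. The labels record no drug treatment, no litter, no other allele and no state of testis descent for either side. Organs were dissected from lower bodies stored in RNAlater, and 30 ng of total RNA from 1 organ was amplified over 2 cycles and hybridised to a 1-colour Affymetrix array.

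The gubernaculum is a paired cord that joins each fetal testis to the future scrotum. In rodents it grows a core of mesenchyme and a rim of striated muscle that later forms the cremaster, and it is acted on by testicular hormones and by the genitofemoral nerve. Each side has its own testis and its own nerve, so right and left can be set against each other within a fetus.

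Levels are log2 values, so a difference of 1 is a 2-fold difference. Of the probe sets of the array, 8189 features had a signal of 5 log2 units or more on 3 or more of the 12 arrays and were tested, and 2775 of these carry a gene name. Array medians ran from 4.92 to 5.07 in LE/orl and from 4.96 to 5.05 in LE/wt. The mean 5′ minus 3′ reading of the beta-actin and GAPDH control probe sets lay between −6.84 and −6.06 log2 in the 6 LE/orl arrays and between −3.79 and −3.46 in the 6 LE/wt arrays. This index of transcript integrity separated the strains and cannot be told apart from them, but it did not separate right from left. In LE/orl it was −6.06, −6.12 and −6.84 on the right and −6.61, −6.08 and −6.45 on the left for fetuses A, B and C. In whole tissue, fewer cells of a type and less RNA per cell cannot be told apart. Striated muscle markers were high in all 12 arrays: the 29 tested sarcomere genes averaged between 10.4 and 11.5, and none of the 3 named testis, adrenal and kidney markers passed the minimum. By their deviations from the group means, LE/wt organs with the same fetus letter were not more alike than those with different letters, as described further on. The labels give the letter as the fetus, and whether the LE/wt letters name the same animal on both sides was not tested. In the same 12 arrays a fit that ignored the pairing also called 0 features for side.

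No feature differed between right and left once p-values were adjusted. Over both strains 0 of 8189 features (0%) passed an adjusted p of 0.05 in limma's moderated test with Benjamini-Hochberg adjustment, and the lowest adjusted p was 0.854. An unadjusted p under 0.05 was reached by 423 features (5.17%), 254 of them higher and 169 lower on the right. Among named genes the mean difference, right minus left, lay between −0.68 and 0.72. The 95% interval of the difference lay within 1 log2 unit of 0 for 8022 features (98%), with a median half-width of 0.30. Large side differences in the mean of both strains were therefore bounded for most features, while smaller ones were not resolved with 3 fetuses of each strain. Within 1 strain alone fewer intervals lay within 1 log2 unit of 0, 95.7% in LE/wt and 87.4% in LE/orl, with a median half-width of 0.43.

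Within single fetuses the sides still differed by more than 1 log2 unit at some features, in unequal numbers. In LE/orl 478, 186 and 654 features did so in fetuses A, B and C, and in LE/wt 215, 112 and 38 did so in fetuses A, B and C. The median SD of the right minus left difference over the 3 fetuses was 0.35 in LE/orl and 0.22 in LE/wt. The difference had 1 sign in all 6 fetuses for 108 features higher on the right (1.32%) and 122 lower on the right (1.49%), 85 of them named genes.

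Isl1 had the lowest difference among the named genes that were lower on the right in 6 of 6 fetuses. Isl1 encodes a LIM homeodomain factor of mesoderm, motor neurons and heart progenitors. It measured 7.87, 6.40 and 5.88 in right and 8.15, 7.60 and 6.91 in left gubernacula of LE/orl fetuses A, B and C. In LE/wt it measured 8.15, 7.81 and 8.05 on the right and 8.24, 8.14 and 8.71 on the left. Each right organ was below its own left partner, yet in both strains the right and left values overlapped. The difference was −0.60 (SE 0.15, 95% interval −0.93 to −0.26, unadjusted p = 0.00361, limma adjusted p = 0.854). It kept its sign under 18 of 18 alternative settings, between −0.73 and −0.51.

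Myog, which encodes the myogenic factor myogenin, was also lower on the right in 6 of 6 fetuses without passing the test. It measured 9.20, 9.17 and 9.35 in right and 9.99, 9.31 and 10.05 in left gubernacula of LE/orl, and 11.00, 10.55 and 11.12 in right and 11.09, 10.75 and 11.34 in left gubernacula of LE/wt. The gap was small in LE/wt and in LE/orl fetus B, and wider in LE/orl fetuses A and C. Its mean difference was −0.36 (SE 0.12, limma adjusted p = 0.854). Among named genes lower on the right in 6 of 6 fetuses, Rab29, a small GTPase of the trans-Golgi and lysosomes, had the lowest limma unadjusted p, 0.00158. Its difference was −0.49 (SE 0.11). Gss, the enzyme that completes glutathione, had −0.43 (SE 0.13), and Kdm5b, a histone H3 lysine demethylase, had −0.36 (SE 0.11).

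Efemp1 led the named genes that were higher on the right in 6 of 6 fetuses. It encodes fibulin-3, a glycoprotein of elastic extracellular matrix. Efemp1 measured 10.97, 10.49 and 10.19 in right and 10.56, 9.58 and 8.91 in left gubernacula of LE/orl fetuses A, B and C, and 11.08, 11.68 and 11.46 in right and 11.06, 11.11 and 11.05 in left gubernacula of LE/wt. In LE/wt fetus A both sides were nearly equal, and in LE/orl fetus C the right was higher by 1.28. The mean difference was 0.60 (SE 0.14, 95% interval 0.27 to 0.92, unadjusted p = 0.00269, limma adjusted p = 0.854). Left fetus D measured 9.96 in LE/orl and 11.39 in LE/wt, within the range of the right organs of LE/wt and just below that of LE/orl.

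Fcgr2a, a receptor for antibodies on macrophages and other white cells, showed 0.57 (SE 0.16). Its right and left levels were 6.89 and 6.31, 7.95 and 7.56, and 8.22 and 7.02 in LE/orl fetuses A, B and C, and 8.89 and 7.89, 8.88 and 8.71, and 8.88 and 8.79 in LE/wt fetuses A, B and C. The wide gaps were those of LE/orl fetus C and LE/wt fetus A. The white cell list did not move with it: of its 2 tested members, Coro1a had a difference of 0.15 and Cyba one of −0.08, and neither passed the test. Lingo1, a membrane protein that restrains myelination, had 0.39 (SE 0.13), and Mcl1, a protein that protects cells from apoptosis, had 0.29 (SE 0.10). Fcgr2a, Lingo1 and Mcl1 each had a limma adjusted p of 0.854.

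**Figure D1:**
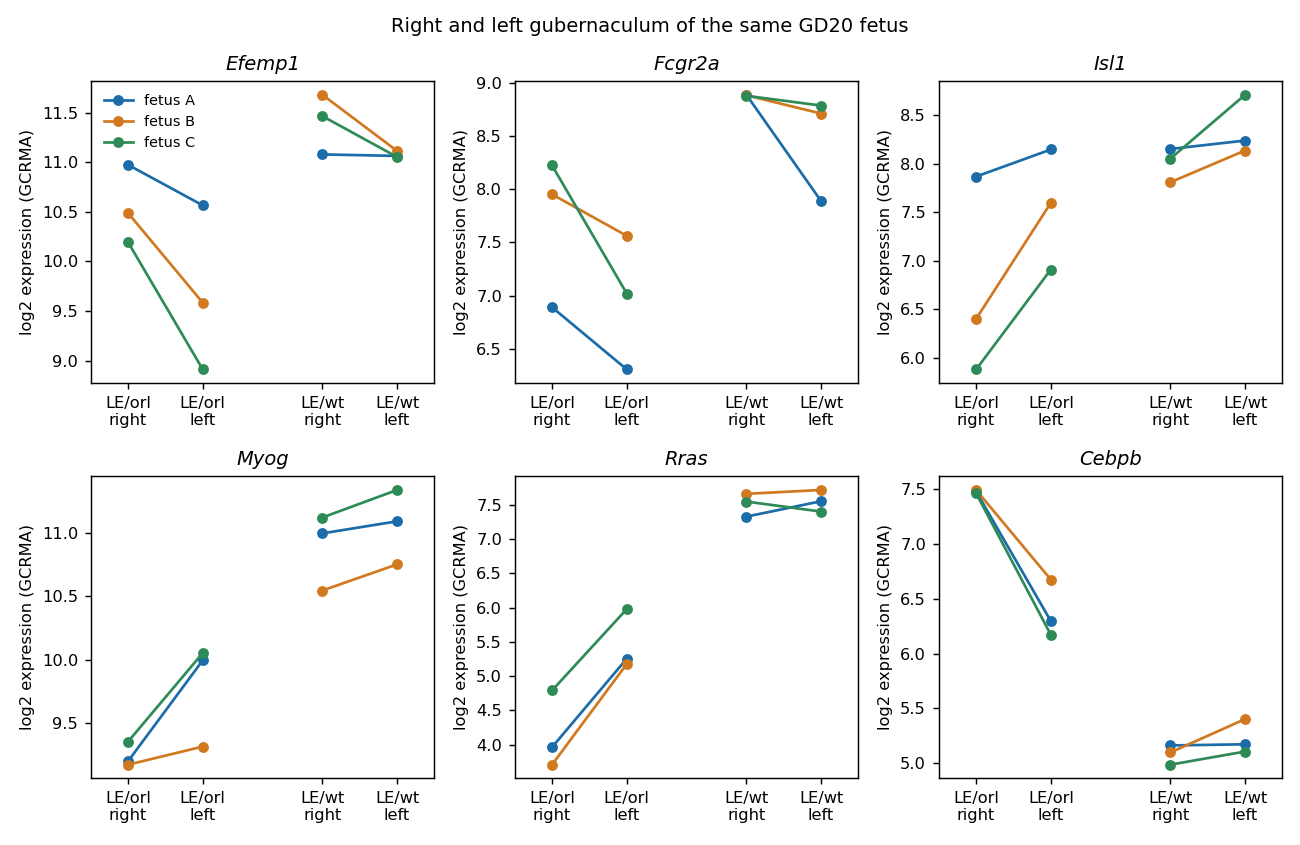
Log2 expression of 6 genes in the right and left gubernaculum of each GD20 fetus, LE/orl before LE/wt, each line joining both sides of 1 fetus. Efemp1 and Fcgr2a slope down and Isl1 and Myog slope up from right to left in all 6 fetuses, while Rras and Cebpb slope in the 3 LE/orl fetuses and lie nearly flat in LE/wt.

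**Figure D2:**
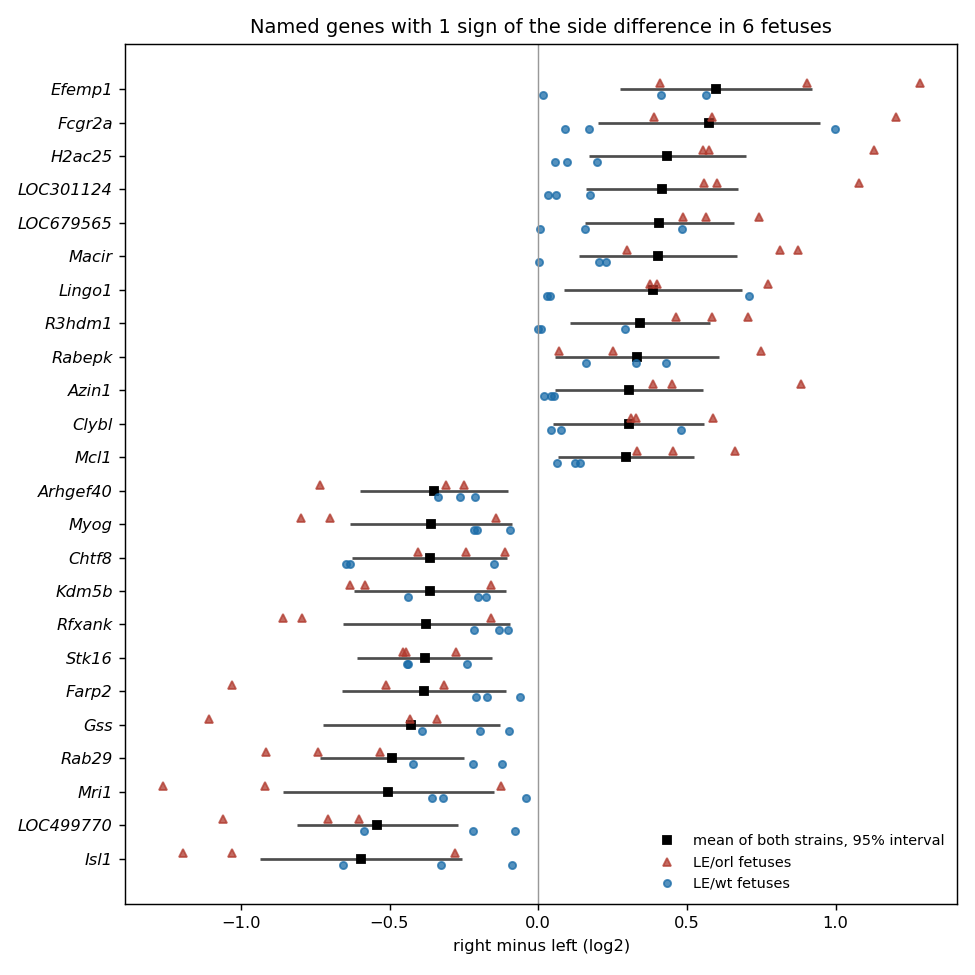
Right minus left on the log2 scale for the 24 named genes with 1 sign in 6 of 6 fetuses and the lowest p in each direction; squares and bars give the mean of both strains with its 95% interval, triangles the LE/orl and circles the LE/wt fetuses. The genes were chosen for a common sign, so that sign is not a result.

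Within LE/orl, 0 features (0%) passed and the lowest adjusted p was 0.146. An unadjusted p under 0.05 was reached by 999 features (12.2%), 665 of them higher and 334 lower on the right. The spread in the fit is pooled over both strains, although right minus left varied more in LE/orl (median SD 0.35) than in LE/wt (0.22). Unadjusted p-values and intervals may thus be too small in LE/orl and too large in LE/wt, and their counts are not compared. Under the alternatives the LE/orl count ran from 406 to 1490. Rras was the named gene nearest the threshold. It encodes a Ras-related GTPase that acts on integrins and on the vessel wall. In LE/orl fetuses A, B and C it measured 3.96, 3.71 and 4.79 on the right and 5.26, 5.18 and 5.98 on the left, so the right and left organs did not overlap, although left fetus D at 4.32 lay among the right values. The difference was −1.32 (SE 0.15, 95% interval −1.66 to −0.98, limma adjusted p = 0.146). In LE/wt fetuses A, B and C it was 7.33, 7.66 and 7.55 on the right and 7.55, 7.72 and 7.40 on the left, a difference of −0.05 (SE 0.15). Rras was dim in LE/orl, where its right values lay below the minimum signal of 5. Left LE/orl gubernacula alone ran from 3.83 to 7.75 at GD18 and from 3.61 to 7.62 at GD19.

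Cebpb, a transcription factor induced by cytokines and glucocorticoids, went the other way. It measured 7.48, 7.49 and 7.46 in the right and 6.30, 6.68 and 6.17 in the left gubernacula of LE/orl fetuses A, B and C, and between 4.98 and 5.16 on the right and between 5.10 and 5.40 on the left in LE/wt. The 3 right LE/orl organs were nearly equal and above all left ones, fetus D at 7.00 included. The LE/orl difference was 1.10 (SE 0.16, limma adjusted p = 0.208) and the LE/wt difference −0.15 (SE 0.16). Psma2, a subunit of the proteasome core, had −0.86 (SE 0.15) in LE/orl and 0.11 (SE 0.15) in LE/wt, with the same adjusted p of 0.208 in LE/orl.

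Whether the side difference itself differed between the strains was tested by the interaction, LE/orl minus LE/wt. It was called for 0 features (0%), with a lowest adjusted p of 0.861, and 423 features (5.17%) had an unadjusted p under 0.05. Rras stood first at −1.27 (unadjusted p = 0.000275) among named genes, and Cebpb followed at 1.24 (unadjusted p = 0.000449), each with a limma adjusted p of 0.861. A side difference that is particular to LE/orl was thus not shown for either gene.

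Within LE/wt, 0 features (0%) passed and 48 (0.586%) had an unadjusted p under 0.05, 17 of them higher and 31 lower on the right. The spread is again the pooled one, and under the alternatives this unadjusted count ran from 16 to 1130. Mast2, a microtubule-associated kinase, stood first among named genes. It measured 7.20, 6.72 and 6.59 in right and 6.31, 6.22 and 6.33 in left LE/wt gubernacula of fetuses A, B and C, and 7.26, 7.69 and 7.88 in right and 7.86, 7.88 and 7.98 in left LE/orl gubernacula. All 3 right LE/wt organs were above all left ones, and each right LE/orl organ was below its partner. The LE/wt difference was 0.55 (SE 0.18, unadjusted p = 0.0138, limma adjusted p = 1.00).

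None of the gene lists held a gene called for side, and the counts of members with an unadjusted p under 0.05 that follow stand beside 5.17% of all features. Of the 29 sarcomere genes, 0 reached it, and their differences ran from −0.33 to 0.17 with a median of −0.04, beside a median of 0.02 over all features. Among the 16 genes of muscle energy supply the median was −0.14, with unadjusted p under 0.05 for Pygm, the muscle glycogen phosphorylase, at −0.26 and for Hrc, a calcium-binding protein of the sarcoplasmic reticulum, at −0.30. The 40 genes of oxidative phosphorylation had a median of 0.02, and the complex I subunits Ndufb5 at 0.27 and Ndufb6 at 0.38 reached an unadjusted p under 0.05. The 33 matrix genes had a median of −0.00, with biglycan (Bgn) at −0.33. Of 3 tested genes from the list for left-right patterning, 1 reached an unadjusted p under 0.05, the Isl1 described above; the others, the cadherin Cdh2 and the glypican Gpc3, had −0.11 and −0.13.

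Lists that mark handling or other cell types were read the same way. Fos, an immediate early gene, had a right minus left difference of 0.61 (SE 0.23, limma adjusted p = 0.854), and it was the only one of 11 genes of its list with an unadjusted p under 0.05. In LE/orl fetuses A, B and C it measured 8.20, 7.25 and 7.23 on the right and 6.30, 7.08 and 5.46 on the left, and in LE/wt 6.09, 5.67 and 5.47 on the right and 5.87, 6.13 and 5.41 on the left. Fetuses A and C of LE/orl carried the difference. Among 5 vessel markers Icam2, an adhesion molecule of the vessel lining, had 0.63 (SE 0.21), and the list's median was 0.11. The 3 nerve markers had a median of −0.15. Whether handling or vessel content had a part in any side difference was not tested.

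Features did pass the test between fetuses. The pooled spread may make p-values too small in LE/orl and too large in LE/wt, so the strains' counts are not compared. With only the arrays of 1 strain, 6 features passed in LE/orl and 0 in LE/wt. Deviations of each array from the mean of its strain and side were correlated between sides over the 8189 features, which share array, amplification and normalisation and are not independent. The deviations of a strain and side sum to 0 at each feature, so high same-fetus values bring low values between fetuses. In LE/orl the right and left organs of fetuses A, B and C had r = 0.508, 0.271 and 0.503, and pairs from different fetuses between −0.556 and 0.037. In LE/wt the same-fetus values were −0.235, −0.100 and 0.227, and the highest value, 0.294, belonged to the right organ of fetus A and the left organ of fetus B. By these deviations each LE/orl organ correlated best with the other organ of its own fetus, and in LE/wt same-fetus values lay within the range of the others, −0.346 to 0.294. By the levels themselves this did not hold for LE/orl fetus A, whose right organ had r = 0.975 with the left organ of fetus B and r = 0.968 with its own left partner. By levels in LE/wt, the right organs of fetuses B and C correlated best with their own left partners (r = 0.9862 and 0.9927). The right organ of LE/wt fetus A did so with left B (0.9852), and the left organs of fetuses A and B with right C (0.9845 and 0.9895).

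**Figure D3:**
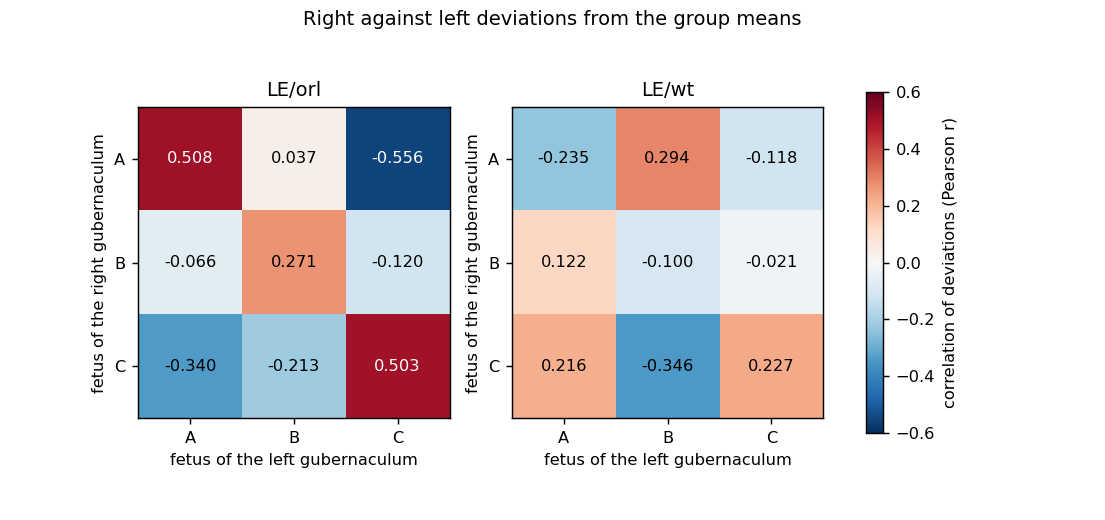
Pearson correlation, over 8189 features, of the deviations of right (rows) and left (columns) gubernacula from the mean of their strain and side. The LE/orl diagonal, where both organs come from 1 fetus, holds 0.508, 0.271 and 0.503, while the LE/wt diagonal holds −0.235, −0.100 and 0.227.

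The first principal component of the 6 LE/orl arrays held 46.9% of their variance and ordered the fetuses A, B and C on both sides, with scores of 22.4, 6.9 and −27.3 on the right and 34.7, 0.3 and −37.0 on the left. The first component of the 6 LE/wt arrays held 45.8%, and its ends were the right organ (29.3) and the left organ (−18.6) of the same fetus, A. The fetuses were in the same order on both sides for 2557 features (31.2%) in LE/orl and for 1671 (20.4%) in LE/wt.

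**Figure D4:**
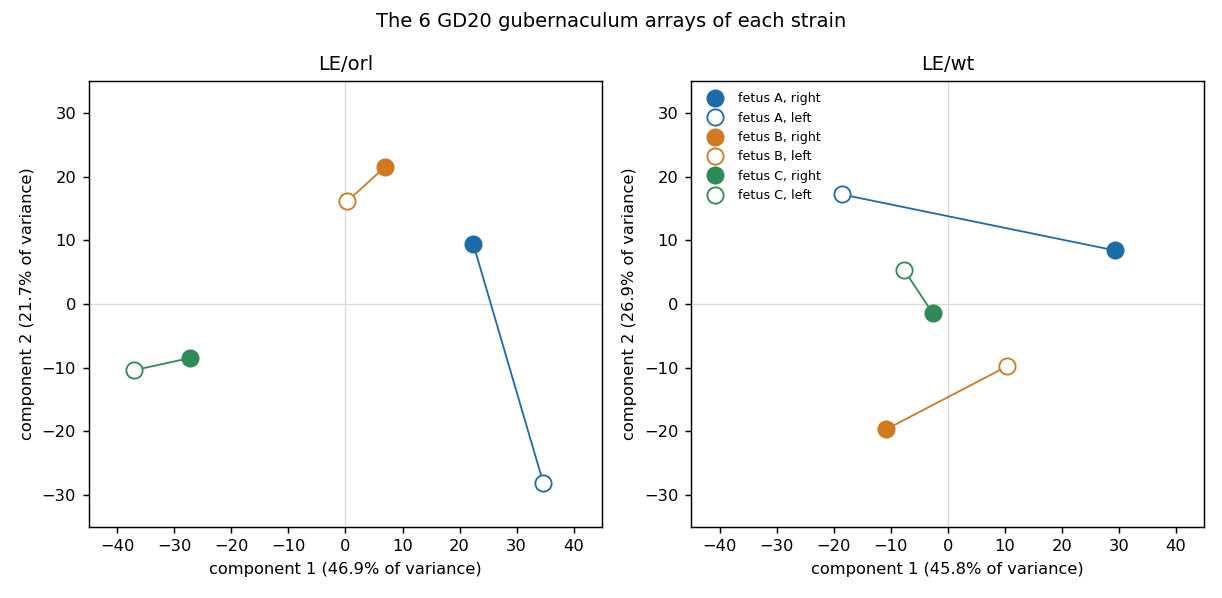
Scores of the 6 arrays of each strain on their first 2 principal components, filled circles for right and open circles for left gubernacula, with a line joining both sides of a fetus. LE/orl fetuses lie apart along the first component on both sides, and in LE/wt the first component runs between both sides of fetus A.

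Between LE/orl fetuses 1009 features (12.3%), 307 of them named, passed limma's moderated F test on both sides together, and 2748 (33.6%) had an unadjusted p under 0.05. The test sets fetus averages against the spread of right minus left and does not require the sides to agree. The fetuses were in the same order on both sides for 734 of the 1009 (72.7%), against 31.2% of all features. The test favours features whose fetus gaps are wide beside the side spread, so this agreement is partly selected and is not separate support. The spread in the fit is pooled over both strains and LE/wt had the smaller one. With only the 6 LE/orl arrays 6 features passed, with array weights 36, and without LE/orl fetus C also 6. Without LE/orl fetus A 525 passed, without LE/orl fetus B 1520, without LE/wt fetus A, B or C 673, 562 or 106, and after adding the 5′ minus 3′ index to the fit 667. The count thus changed with the arrays and settings used, and why was not tested. Among the 1009, fetus C was farthest from the middle fetus in 710 (70.4%), against 3680 of all features (44.9%). Fetus means of the called features spanned 0.68 to 3.93 log2 units with a median of 1.20, and those of all features had a median span of 0.53. Wide spans are what the test selects.

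In what follows, ranges given for LE/wt cover its 6 paired organs, and values of the unpaired left organ of fetus D are named where they are used. Jag1, a ligand of Notch receptors, had the lowest p of the named genes. It measured 9.58, 9.03 and 7.16 in right and 9.65, 8.93 and 7.13 in left gubernacula of LE/orl fetuses A, B and C, so the sides of each fetus were nearly equal. Left fetus D had 8.94. In LE/wt all 6 organs lay between 4.46 and 5.11, so fetus C was the LE/orl fetus nearest to LE/wt. The limma adjusted p was 0.00535 in LE/orl, and it lay between 0.00275 and 0.204 under the alternatives, under 0.05 in 12 of 15.

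RT1-T24-4, a class I gene of the major histocompatibility complex, was high in 2 LE/orl fetuses and low in 1 on both sides. It measured 6.12, 5.35 and 2.36 on the right and 5.10, 5.12 and 2.44 on the left (limma adjusted p = 0.00585). All LE/wt organs at GD20 lay between 4.59 and 5.35, and no other gubernaculum of either strain or sex, at any day, was below 3.46. For such a low value the array gives little more than that the probe set was dim.

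Other named genes were highest in fetus C. Ramp1, which joins the calcitonin receptor-like receptor to form the receptor of calcitonin gene-related peptide, a peptide that makes the rodent gubernaculum contract in culture, measured 7.63, 7.57 and 9.16 on the right and 7.43, 7.85 and 9.45 on the left in LE/orl (limma adjusted p = 0.00852). LE/wt organs lay between 8.72 and 8.96, below both organs of LE/orl fetus C and above those of fetuses A and B. Coro1b, an actin regulator, was stepped, with 5.40, 6.31 and 7.73 on the right and 5.98, 6.91 and 7.81 on the left in LE/orl (limma adjusted p = 0.00781) and 8.38 to 9.02 in LE/wt. Efhd2, a calcium-binding actin regulator, measured 5.34, 5.92 and 7.43 on the right and 5.16, 5.35 and 7.20 on the left in LE/orl, and 8.43 or more in LE/wt. Fkbp8, a mitochondrial immunophilin that restrains apoptosis, had 6.42, 6.07 and 8.13 on the right and 6.08, 6.51 and 8.46 on the left, and 8.41 or more in LE/wt. Fetus C lay between its strain mates and LE/wt for Coro1b and Efhd2. For Fkbp8 its left organ, at 8.46, reached the lower end of LE/wt, and its right organ, at 8.13, stayed below it.

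Fetus C lay nearest to the LE/wt mean in 506 of the 1009 called features (50.1%), against 3105 of the 8189 tested (37.9%). Among named genes it did so in 193 of the 307 called (62.9%), against 1198 of 2775 (43.2%). The F test selects features with an outlying fetus. Fetus C was highest in 541 (53.6%) and lowest in 422 (41.8%) of the 1009, against 41.9% and 35.4% of all features. An outlying fetus is often either the nearest to LE/wt or the farthest from it. A higher share can thus follow from that selection and is not read as a shift toward LE/wt. Named genes come from lists that the authors selected on arrays of this series, so the named counts are not independent of a strain difference. The 5′ minus 3′ index of fetus C was −6.84 on the right, the farthest of the 3 right organs from LE/wt, and −6.45 on the left, between fetus A at −6.61 and fetus B at −6.08. The part of RNA integrity in the differences between fetuses was not tested.

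**Figure D5:**
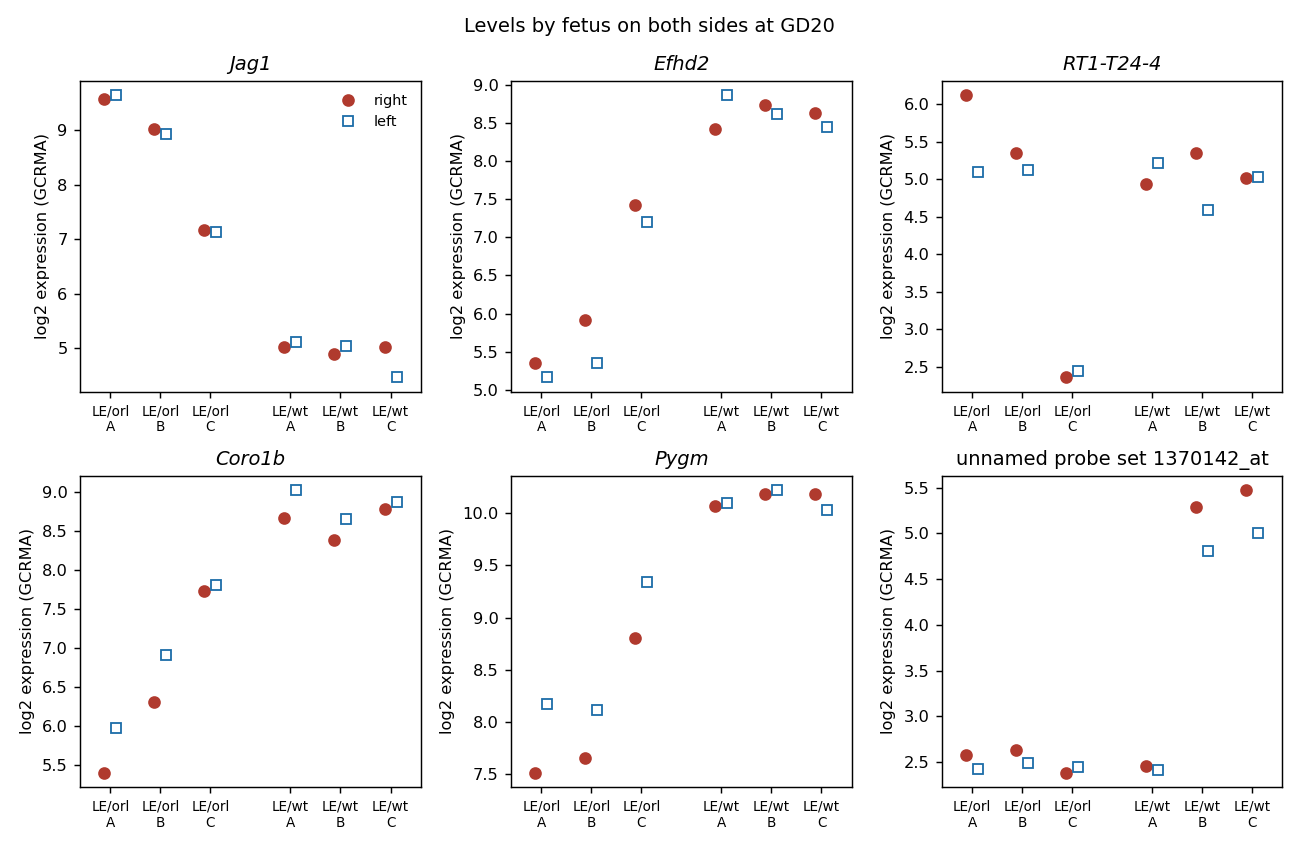
Log2 expression of 5 named genes and 1 unnamed probe set by fetus at GD20, filled circles for right and open squares for left gubernacula, LE/orl before LE/wt. Both sides of LE/orl fetus C stand apart from fetuses A and B in the 5 genes, toward LE/wt for Jag1, Efhd2, Coro1b and Pygm, and both sides of LE/wt fetus A stand apart in the unnamed probe set.

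Of 29 sarcomere genes 4 were called between LE/orl fetuses, a share near the 12.3% of all features. They were Actn2, Mybph, Tnnc1 and Ttn, all 4 highest in fetus C and nearest there to LE/wt. Actn2, the Z-disc protein alpha-actinin 2, measured 10.33, 10.59 and 11.17 on the right and 10.45, 10.53 and 11.54 on the left, against 11.68 to 11.88 in LE/wt. Tnnc1, the troponin C of slow and cardiac muscle, measured 10.50, 10.57 and 11.55 on the right and 10.70, 10.54 and 11.43 on the left, against 11.94 to 12.18 in LE/wt. Both sides of fetus C were above both sides of A and B for these genes. Over the whole list, called or not, fetus C was highest in 19 of 29, against 3430 of all 8189 features (41.9%).

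Of 16 genes of muscle energy supply 4 were called, beside 12.3% of all features, and all 4 were highest in fetus C. They were Pygm, Pfkm, Aldoa and Atp2a1, which serve glycogen breakdown, glycolysis and calcium uptake. Pygm measured 7.52, 7.66 and 8.80 on the right and 8.18, 8.12 and 9.34 on the left in LE/orl, against 10.03 to 10.22 in LE/wt (limma adjusted p = 0.0133 between LE/orl fetuses). Fetus C was highest in 12 of the 16. Des, the intermediate filament protein desmin, had 7.34, 6.39 and 8.63 on the right and 7.27, 7.34 and 8.55 on the left (limma adjusted p = 0.0194), and LE/wt had 8.98 or more. Myog was not called between LE/orl fetuses (limma adjusted p = 0.252).

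Matrix genes, called or not, were highest in fetus C in 26 of 33, beside 41.9% of all features, and were nearest there to LE/wt in 9. The 3 called, a share below the 12.3% of all features, were Fbln1, Col6a1 and Mfap4, which encode fibulin-1, a chain of collagen VI and a microfibril protein. Fbln1 measured 10.17, 10.42 and 11.81 on the right and 10.33, 10.59 and 11.69 on the left in LE/orl fetuses A, B and C (limma adjusted p = 0.0128), and LE/wt organs lay between 10.82 and 11.16. Col6a1 measured 12.70, 12.58 and 13.51 on the right and 12.88, 12.99 and 13.70 on the left (limma adjusted p = 0.0293), with LE/wt between 12.46 and 12.64. For both genes fetus C exceeded every organ of LE/wt as well as its strain mates. Mfap4 measured 9.44, 9.46 and 10.91 on the right and 10.22, 10.29 and 11.02 on the left in LE/orl. Its LE/wt values lay between 11.13 and 11.78, so for Mfap4 fetus C stayed below LE/wt.

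Among 19 genes of developmental signalling pathways 4 were called, beside 12.3% of all features. They were Jag1 and Dusp6 lowest and Fgfr1 and Bmp7 highest in fetus C. Dusp6, a phosphatase that ends ERK signalling, measured 10.51, 10.57 and 9.01 on the right and 10.55, 10.01 and 8.93 on the left (limma adjusted p = 0.0141), against 7.12 to 7.49 in LE/wt. Fgfr1, a receptor of fibroblast growth factors, measured 5.24, 4.23 and 6.35 on the right and 6.35, 4.74 and 6.56 on the left (limma adjusted p = 0.0203), against 7.28 to 8.36 in LE/wt. The left organ of fetus A reached the level of fetus C for Fgfr1, so its fetuses were less cleanly apart. Aldoa, Ttn, Bmp7 and the other members of these counts were named after their values were seen. Isl1 was called as well (limma adjusted p = 0.0209), with fetus C lowest on both sides, as its values above show.

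Of 5 smooth muscle genes 2 were called between LE/orl fetuses, Des and Smtn, the smooth muscle protein smoothelin, both highest in fetus C. The smooth muscle list averaged 7.15, 7.15 and 7.84 on the right and 7.15, 7.46 and 7.93 on the left for LE/orl fetuses A, B and C, and 8.32 to 8.65 in LE/wt. Of the vessel, nerve, white cell and red cell markers 0 of 5, 0 of 3, 0 of 2 and 0 of 2 were called, and beside the 12.3% of all features nothing is read from lists this small. As list means, the sarcomere list read 10.6, 10.5 and 10.8 on the right and 10.6, 10.4 and 11.0 on the left for LE/orl fetuses A, B and C, and 11.1 to 11.5 in LE/wt. The nerve list read 7.45, 7.33 and 7.67 on the right and 7.49, 7.33 and 7.77 on the left in LE/orl. The smooth muscle, sarcomere and nerve lists were all highest in fetus C on both sides. So were the muscle energy, matrix, cell cycle and immediate early lists, among others, so this was not particular to muscle and nerve markers. The oxidative phosphorylation list was highest in fetus B on the right. The part of tissue make-up in the differences between fetuses was not tested.

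With the spread again pooled over both strains, 1 feature (0.0122%) passed between LE/wt fetuses, and 234 (2.86%) had an unadjusted p under 0.05. It is the unnamed probe set 1370142_at, with 2.45, 5.29 and 5.47 on the right and 2.41, 4.81 and 5.00 on the left for fetuses A, B and C (limma adjusted p = 0.00412). Left fetus D had 4.55. Fetus A lay near the level of the 7 LE/orl organs of GD20, 2.38 to 2.63, and of every gubernaculum of GD18 and GD19, none of which was above 3.09. It reached the minimum signal on 3 of the 12 arrays, all from LE/wt fetuses B and C, so it was tested only because it was high there, and its level is a description. In the 20 testis arrays of the series it read 7.05 to 8.93, and whether testis tissue had a part in its level here was not tested. It was not called without LE/wt fetus A, nor with no minimum signal, where another feature was.

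No named gene was called between LE/wt fetuses. The lowest p belonged to Ecrg4, which encodes the secreted peptide precursor augurin, with 7.04, 7.03 and 8.57 on the right and 7.58, 6.92 and 8.36 on the left for fetuses A, B and C (limma adjusted p = 0.367). Fetus C was above the others on both sides. Mybpc1, the slow form of myosin-binding protein C, was highest in fetus B on both sides, with 10.82, 12.21 and 10.98 on the right and 11.16, 11.80 and 10.84 on the left (limma adjusted p = 0.892). Fgfr2, a receptor of fibroblast growth factors, was also highest in fetus B, with 7.29, 8.29 and 7.83 on the right and 7.47, 8.60 and 7.62 on the left (limma adjusted p = 0.839).

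The widest right minus left values of LE/wt fetus A included a red cell gene, with no test of 1 fetus possible. Hbe1, the embryonic epsilon globin of red cells, measured 12.59, 9.85 and 8.94 on the right and 8.06, 10.75 and 9.79 on the left in LE/wt fetuses A, B and C, and 11.62 in left fetus D. The right organ of fetus A was the highest and its left organ the lowest of the 7 LE/wt organs, a difference of 4.53. In LE/orl it measured 7.76, 9.50 and 7.22 on the right and 7.16, 9.47 and 9.19 on the left. Over both strains the side difference of Hbe1 was 0.24 (95% interval −1.35 to 1.83, limma unadjusted p = 0.738), and the other tested red cell marker, Gypc, read 9.71 on the right and 9.72 on the left in LE/wt fetus A. The 8 named genes that exceeded their left partner most in LE/wt fetus A, chosen after their values were seen, also held Emb, a membrane glycoprotein, at 4.26, St3gal5, a sialyltransferase, at 1.63, Lgals3, the galectin of macrophages and other cells, at 1.60, Lyve1, a hyaluronan receptor of lymphatic vessels and some macrophages, at 1.48, Urod, an enzyme of haem synthesis, at 1.38, Glrx5, a mitochondrial glutaredoxin of iron-sulphur clusters, at 1.37, and Gabarapl2, a protein of autophagy, at 1.25. Without LE/wt fetus A the side count over both strains stayed at 0.

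Over both strains together, 74 features (0.904%), 19 of them named, passed the F test between fetuses, and 1886 (23%) had an unadjusted p under 0.05. The 12 named genes with the lowest p all passed, and each of those described was called within LE/orl and not within LE/wt. They include the genes above and Wdfy1, an endosomal protein, Hmmr, a mitotic receptor of hyaluronan, Pgls, an enzyme of the pentose phosphate pathway, and Gcnt1, which branches O-glycans. Hmmr measured 9.18, 8.59 and 7.77 on the right and 8.99, 8.51 and 7.32 on the left in LE/orl, and between 8.35 and 9.03 in LE/wt (limma adjusted p = 0.0368). Pgls measured 6.29, 6.48 and 8.17 on the right and 6.15, 6.51 and 7.60 on the left in LE/orl, and between 6.89 and 7.23 in LE/wt (limma adjusted p = 0.0373). On both sides LE/orl fetus C lay below the LE/wt range for Hmmr and above it for Pgls. Without LE/orl fetus A or C the count over both strains was 2.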

How the data were processed

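The deposited log2 values come from GCRMA (named in the submitters' processing notes) and were used as they stand, with no further normalisation. The authors' deposited gene lists, which also hold mean linear intensity per group, gave gene names only: 1 symbol per probe set, and per gene the probe set with the highest mean over the gubernaculum arrays. Authors chose those lists on arrays of this series, so list directions are not independent evidence. Features with log2 5 or more on 3 of the 12 paired arrays were tested in limma 3.58.1 (R 4.3.3), with fetus as a fixed block and a right minus left term per strain (4 residual degrees of freedom). Fetus effects were moderated F tests on both sides together. Benjamini-Hochberg adjustment ran over 8189 features, with 0.05 as threshold. The pairing comes from the labels' fetus letter. In LE/wt the deviations did not show it, and the levels did so only in part. Named genes were the 12 lowest p per direction with 1 sign in 6 fetuses, the 6 lowest per strain and interaction, the 12 and 8 lowest between fetuses, and up to 3 per list. Genes, lists and comparisons were chosen with earlier results of these data known. Litters are not labelled, so fetuses may share dams. The number of arrays limits precision. The fit was tested on simulated data. Some genes that the naming rule selects are not reported here.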

Additional observations from a re-analysis of the deposited data

Results flagged for a closer look

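Right minus left was examined for a fetus far from the other 5 in 156 named genes. By Dixon's criterion on the gap to the nearest fetus over the range, 13 had one. The criterion flags about 1 of 20 groups of values from 1 normal distribution. These fetuses came from 2 strains of unlike spread and some genes were named for their width, so that rate cannot be set against the 13. LE/orl fetus C was the far one in 7 of the 13 genes. In LE/orl fetus C the values were 1.45 for Ddx3x, an RNA helicase, 0.84 for Fads1, a fatty acid desaturase, 0.47 for Rps12, a ribosomal protein, −1.11 for Gss, −0.71 for Mybph, −1.46 for Psmd9, a proteasome chaperone, and −1.82 for Ifi27, an interferon-induced gene. In LE/orl fetus A they were 1.37 for Rpl28, a ribosomal protein, −0.73 for Arhgef40 and −1.04 for Smtn, smoothelin of smooth muscle. In LE/wt fetus C the value was 0.56 for Jag1. In LE/wt fetus A, 1.63 for St3gal5 and 1.25 for Gabarapl2 were far from the rest, and both genes were named for their width in that fetus. No side difference passed the test of a difference between strains.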

How the results depend on the processing

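Side calls were 0 under 18 alternatives over both strains, 18 in LE/wt and 17 for the interaction, while in LE/orl leaving out 1 fetus gave 0 to 1, the 1 without LE/orl fetus B. Without the replicate block, the unpaired fit called 0 features for side, and no call changed. Counts between fetuses depended on the settings and are given for both strains, LE/orl and LE/wt in that order. With no minimum signal they were 45, 521 and 1, with a minimum of 7 they were 203, 1044 and 0, and with trend and robust moderation 352, 1336 and 1. With array weights they were 5, 36 and 4, and with the 5′ minus 3′ index in the fit 5, 667 and 1. With only the arrays of 1 strain they were 6 in LE/orl and 0 in LE/wt, where the spread rests on fewer arrays. Leaving out 1 fetus gave 2 to 93, 6 to 1520 and 0 to 2. Of the 1009 LE/orl features, 351 were also called with no minimum signal and 36 with array weights. The LE/wt feature called with no minimum signal was a different one, since 0 were shared. The causes of these shifts were not tested. With 3 fetuses per strain, differences well under 1 log2 unit were not resolved in most genes, and dim probe sets give little more than a bound.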
